A study of Homo sapiens and Mus musculus with 13 samples.

Results

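The comparison described here sets 4 of the 13 libraries of the series against each other: a pair whose deposited files are named for an FKBP (degron) line with DMSO and a pair whose files are named for O3, read here as OCI-AML3, with DMSO. The members were chosen by file name. The sample titles disagree: they call the first pair OCI-AML3 with DMSO and the second pair OCI-AML3 NPM1c with Selinexor (25 nM, for 24 h). Both sources put the same libraries together and differ only in what they call each pair. The first pair is called degron-named below and the second OCI-named, and every direction is given as degron-named relative to OCI-named. Under the file names the question is how the engineered line differs from its parent when both receive the vehicle DMSO. Under the titles the same numbers compare OCI-AML3 with and without Selinexor.

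OCI-AML3 is an established human acute myeloid leukaemia line, and all 8 human libraries are labelled with the genotype DNMT3A, NPM1c and NRASmut, so the degron derivative and its controls share them. The derivative is labelled NPM1c degron2, and no label says whether it is a single clone. The other 4 human libraries have files named for the degron line with dTag and for OCI-AML3 with KPT. Their titles call them degron2 with DMSO and degron2 with dTag-13, at 500 nM and over 24 h. Each human group has 2 libraries, which the submitters describe as biological duplicates. The p-values therefore measure the spread between duplicates, part of which may be technical.

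Nucleophosmin (NPM1) is an abundant nucleolar protein that shuttles between nucleus and cytoplasm, and the frameshift form NPM1c gains a nuclear export signal and collects in the cytoplasm. Leukaemia cells with NPM1c typically keep HOX genes and their cofactor MEIS1 active. In a dTag degron, the target protein is fused to a variant of FKBP12, and a bifunctional compound such as dTag-13 joins the fusion to a ubiquitin ligase so that the proteasome removes it. Selinexor (KPT-330) blocks XPO1, the carrier that exports proteins such as NPM1c from the nucleus. A line made by genome editing usually passes through few cells or a single cell.

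The tables give numbered clusters of UCSC transcripts and no gene symbols. A RefSeq table gave a symbol for 3 of the 31848 clusters, all of them long non-coding RNAs. NPM1, XPO1, FKBP1A, the HOX genes and myeloid markers were therefore not analysed here, and neither the pair names nor the labelled cell type was checked against them. Results are given for clusters by number, with the UCSC transcripts each holds.

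Total expected counts were 14210732 and 16320229 in the degron-named pair and 12277424 and 16456971 in the OCI-named pair. Fragment lengths were inferred from transcript length less the effective length that RSEM reports, as a median over clusters. They were 237.8 and 225.6 nt in the degron-named pair and 283.1 and 244.1 nt in the OCI-named pair, without overlap. A count above 0 was found for 15396 and 15616 clusters in the degron-named pair and for 15692 and 15945 in the OCI-named pair. The depth of the pairs overlapped, while the OCI-named libraries had longer inferred fragments and slightly more clusters detected.

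The 2 pairs differed by more than their duplicates did. Across the 13590 clusters tested, the root mean square difference of log2 CPM (counts scaled to a common library size) was 0.396 between the degron-named duplicates and 0.492 between the OCI-named duplicates. Between a degron-named and an OCI-named library it was 1.00 to 1.03 over the 4 possible pairs of libraries. Between the DMSO and dTag libraries of the degron name it was 0.578 to 0.652, and between the DMSO and KPT libraries of the OCI name 0.711 to 0.742. Libraries that share a line by file name were thus closer to each other than libraries that share OCI-AML3 by title. The libraries that share degron2 by title, with files named for dTag and KPT, differed by 1.093 to 1.185. By title, all degron-named libraries received DMSO and all OCI-named libraries received Selinexor or dTag-13. Under the titles the same split is thus vehicle against compound. These distances do not show which names are right.

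**Figure D1:**
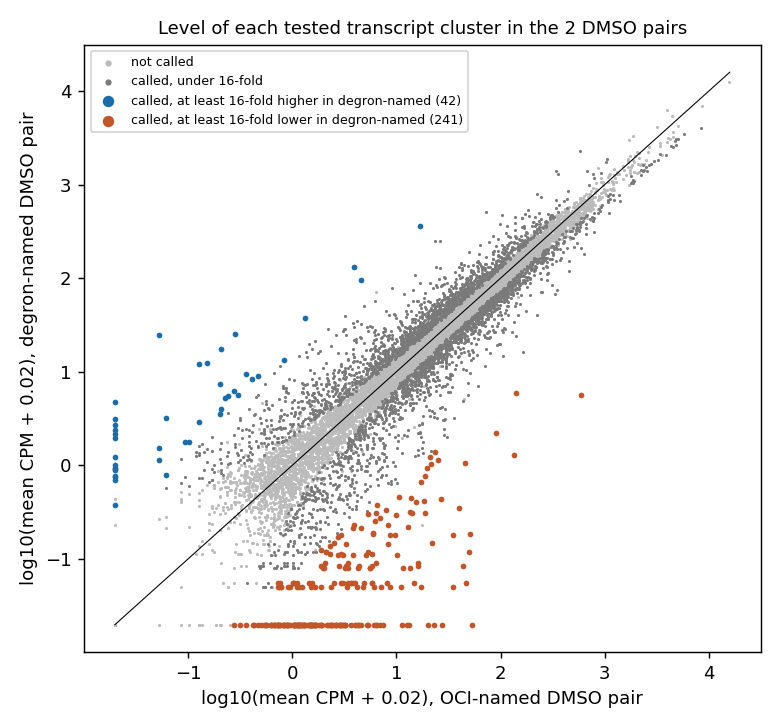
Mean level of each of the 13590 tested clusters in the OCI-named DMSO pair (x axis) and the degron-named DMSO pair (y axis), as log10 of mean CPM plus 0.02, 1 point per cluster. Points in colour are the 42 clusters at least 16-fold higher and the 241 at least 16-fold lower in the degron-named pair, and many of the latter lie on the lowest line, which marks a level of 0.

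By edgeR's quasi-likelihood test on all 8 human libraries, 3756 of 13590 clusters (27.6%) differed between the pairs at an adjusted p under 0.05. Of these, 1716 (12.6% of those tested) were higher and 2040 (15%) lower in the degron-named pair. The count was 2332 and 2105 without degron-named replicate 1 or 2, and 2415 without OCI-named replicate 2. The direction of the split depended on the scaling: with library totals alone, 2034 clusters were higher and 1653 lower. With limma on log2(TPM + 1), where the median cluster stood 0.13 higher in the degron-named pair, 62.7% of the called clusters were higher, against 45.7% here.

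Losses in the degron-named pair outnumbered gains among the largest fitted differences. Under 2-fold, 1020 called clusters were higher and 1027 lower in the degron-named pair, and from 2-fold to 4-fold the numbers were 470 and 486. From 4-fold to 16-fold there were 184 higher and 286 lower. At 16-fold or more, 42 clusters (0.309% of those tested) were higher and 241 (1.77%) lower, so that 85.2% of this class were losses in the degron-named pair. How small differences split depends on the scaling, as given above. With a mean of at least 5 CPM the class held 11 gains and 42 losses. Losses outnumbered gains in it under each of the 13 alternatives run, from 13 against 6 (limma on log2(TPM + 1)) to 294 against 61 (no low-count filter). The clusters just inside and just outside the 16-fold limit had absolute log2 fold changes of 4.004 and 3.997 among losses, and of 4.039 and 3.985 among gains.

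**Figure D2:**
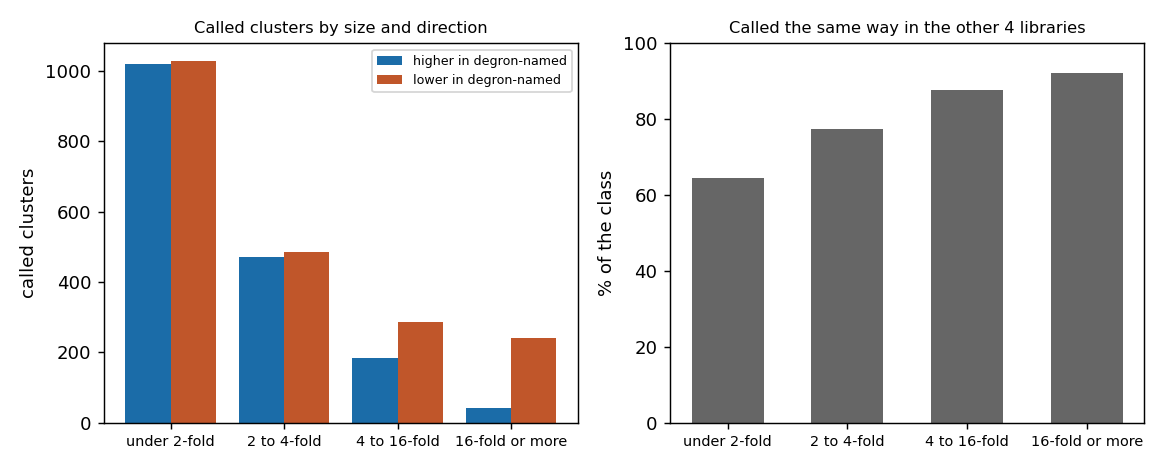
Left, number of called clusters (y axis) by size of the difference (x axis), higher or lower in the degron-named pair, with 42 higher and 241 lower at 16-fold or more. Right, percent of each size class that was called in the same direction in the other 4 human libraries, rising from 64.6% under 2-fold to 92.2% at 16-fold or more.

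The large differences were mostly between silence and a modest level. Of the 241 clusters lost in the degron-named pair, 194 had a mean under 0.1 CPM there, close to the 0.0983 CPM that 3 counts over that pair amount to. In the OCI-named pair 197 of them reached 1 CPM and 44 reached 10 CPM. Together the 241 took 0.00361% and 0.00357% of counts in the degron-named duplicates and 0.231% and 0.228% in the OCI-named duplicates. In the degron-named dTag libraries they took 0.00610% and 0.00627%, and in the OCI-named KPT libraries 0.292% and 0.254%. The order of the DMSO pairs follows from the choice of these clusters. The dTag and KPT libraries, which did not set the fold, kept that order without overlap. These are pooled shares in which abundant clusters weigh most, such as cluster 2402 with a mean of 592 CPM in the OCI-named pair. Clusters this low in a pair entered the test through their counts in the other pair, and their fitted folds depend on the small count the fit adds. Membership of the class past 16-fold rests on those fitted folds.

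The 42 gained clusters showed the mirror image on a smaller scale, in the DMSO pairs again by choice and again as pooled shares. They took 0.0869% and 0.0831% of counts in the degron-named duplicates and 0.00296% and 0.00300% in the OCI-named duplicates. The dTag libraries had 0.0743% and 0.0741% and the KPT libraries 0.00296% and 0.00377%. Of the 42, 22 had a mean under 0.1 CPM in the OCI-named pair, and 10 reached 10 CPM in the degron-named pair. Clusters with a single transcript made up 42.9% of the 42 and 23.2% of the 241, against 21.5% of all tested clusters.

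Named clusters were the most abundant past 16-fold in each direction whose duplicates did not overlap and whose expected counts were whole numbers. Fractional counts come from reads split between clusters, while whole counts do not prove that no reads were shared. Cluster 11615, with the transcripts uc002exp.3, uc002exq.3, uc002exr.3 and uc010vll.2, was higher in the degron-named pair. It had 386 and 343 CPM in the degron-named duplicates and 17.45 and 16.25 CPM in the OCI-named duplicates. The difference was 21.7-fold (log2 fold change 4.44, SE 0.198, adjusted p = 6.16e-08, edgeR). By level it ranked 441 of the 13590 tested clusters in the degron-named pair and 7600 in the OCI-named pair. In the libraries named for dTag it had 423 and 392 CPM, and in those named for KPT 8.7 and 13.24 CPM, so it was high in every degron-named and low in every OCI-named library. It was lower with KPT than with DMSO in the OCI-named libraries (log2 -0.62, adjusted p = 0.0388, edgeR), and dTag against DMSO gave log2 0.16 (adjusted p = 0.615).

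Cluster 24962, with the single transcript uc003pvy.4, was the other named gain. It had 142.85 and 117.94 CPM in the degron-named duplicates against 2.96 and 4.84 CPM in the OCI-named duplicates, a 32.9-fold difference (log2 5.04, SE 0.280, adjusted p = 2.82e-07, edgeR). The dTag libraries had 85.07 and 74.39 CPM and the KPT libraries 1.95 and 3.76 CPM. The 4 degron-named libraries were again all above the 4 OCI-named ones. The dTag libraries lay below the DMSO libraries of the same name, by a log2 difference of -0.71 that did not pass the test (adjusted p = 0.0718, edgeR).

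Cluster 2402, with the transcript uc001gzh.1, was the most abundant loss. It had 6.16 and 5.07 CPM in the degron-named duplicates and 542 and 642 CPM in the OCI-named duplicates, 106-fold lower in the degron-named pair (log2 -6.72, SE 0.225, adjusted p = 1.78e-08, edgeR). It ranked 240 by level in the OCI-named pair and 9938 in the degron-named pair. The dTag libraries had 6.15 and 4.87 CPM and the KPT libraries 877 and 677 CPM. Neither compound comparison passed for this cluster: log2 -0.02 for dTag against DMSO (adjusted p = 0.975) and 0.39 for KPT against DMSO (adjusted p = 0.1165, both edgeR, by file name).

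Cluster 31198, with the transcripts uc004ekh.3, uc004eki.3 and uc004ekj.1, had 7.07 and 4.89 CPM in the degron-named duplicates and 115.5 and 165.78 CPM in the OCI-named duplicates. It was 23.6-fold lower in the degron-named pair (log2 -4.56, SE 0.261, adjusted p = 3.48e-07, edgeR). The dTag libraries had 7.44 and 4.49 CPM and the KPT libraries 164.8 and 156.02 CPM. As for the other named clusters, the order of the libraries followed the line in the file names. Under the titles the same order sets DMSO against a compound.

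**Figure D3:**
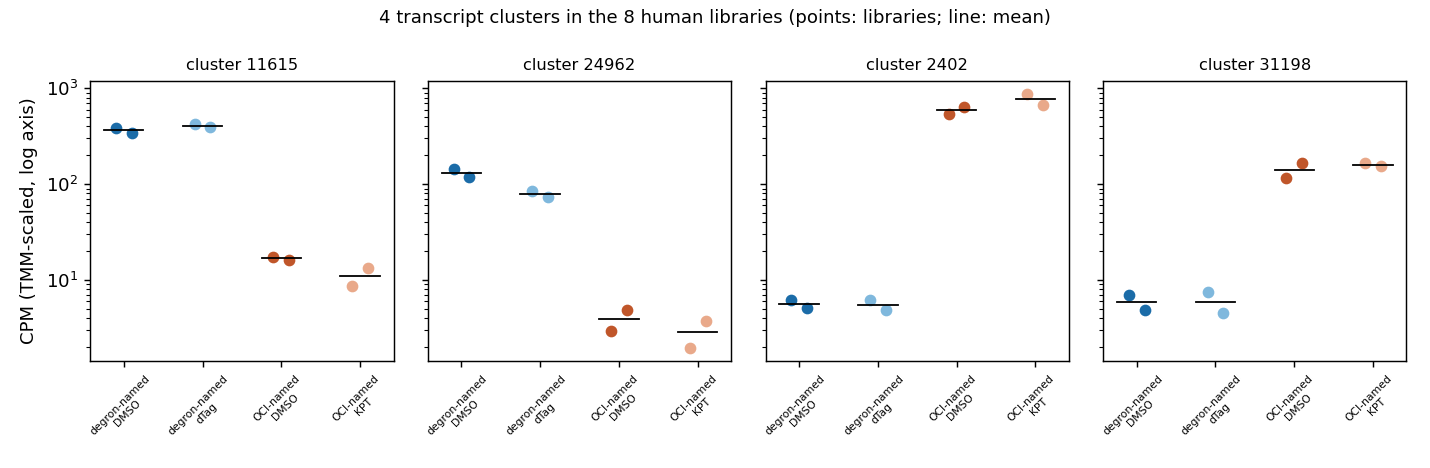
CPM of the 4 named clusters (y axis, log scale) in the 8 human libraries, grouped by file name on the x axis, with 1 point per library and a line at the mean of 2. Clusters 11615 and 24962 are high in all 4 degron-named libraries, and clusters 2402 and 31198 in all 4 OCI-named libraries.

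Some clusters had no count at all in one pair. There were 51 clusters with a count of 0 in both degron-named duplicates and at least 20 in both OCI-named duplicates (0.16% of all 31848), and 6 of the opposite kind (0.0188%). Without degron-named replicate 2 the first number was 84. The second was 10 without degron-named replicate 1, and 16 and 12 without OCI-named replicate 1 or 2. Of the 51, 37 had whole expected counts in every library. Those 37 had between 20 and 719 counts, with a median of 43, in the OCI-named DMSO libraries. In the dTag libraries none of the 37 had more than 3 counts, and 28 had none. In the KPT libraries 30 of them again had at least 20 counts in both duplicates, and the lowest count was 5. These limits are counts not scaled to depth. Total expected counts were 9743255 and 9816252 in the dTag libraries and 17078166 and 17208221 in the KPT libraries. Low counts are thus easier to reach in the former and 20 counts in the latter. The part of depth in this repeat was not tested. Against a floor of 3 counts over the pair, these 37 clusters were at least 14.2-fold to at least 509-fold lower in the degron-named pair. These bounds take whole counts as free of shared reads, which was not tested. For the rest of the 51 a count of 0 depends on how shared reads were assigned, so no such bound is given.

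The 6 clusters at 0 in the OCI-named pair were followed into the other libraries too. In both dTag libraries 2 of the 6 had at least 20 counts, and 3 of the 6 were at 0 in both KPT libraries. The minimum of 20 was not scaled to depth, so it was stricter in the dTag libraries, which had fewer counts than the degron-named DMSO pair. A single cluster met both conditions, and another reached 142.41 counts in a KPT library. Expected counts were whole in 3 of the 6.

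The remaining 14 of the 51 had fractional counts, meaning that reads were shared with other clusters. Among these were 4 clusters with identical values in every library (0 in the degron-named DMSO duplicates, 58.04 and 130.41 in the OCI-named ones, and 70.23 in a single dTag library), so they cannot be counted as separate observations. Of the 14, 8 had more than 3 counts in a dTag library, up to 91.16, so they were not at 0 in all degron-named libraries. The other 6 had at most 1 count in either dTag library, as the clusters with whole counts had few or none.

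The other 4 human libraries share no library with the DMSO pairs. Under the file names they set the same lines against each other, with dTag in one and KPT in the other, and under the titles they compare dTag-13 with DMSO in degron2. In that comparison 5466 of 13590 clusters (40.2%) were called. Of the 3756 clusters called between the DMSO pairs, 2734 were called in the same direction there, which is 72.8% of the first list and 50.02% of the second, and 73 were called in the opposite direction. By class of fitted difference the share was 64.6% under 2-fold, 77.3% from 2-fold to 4-fold, 87.7% from 4-fold to 16-fold and 92.2% at 16-fold or more. Of the 241 losses 230 were called as losses again, 195 of them past 16-fold. Of the 42 gains 31 were called as gains again, 21 of them past 16-fold.

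The 4 named clusters differed in the same direction in the other libraries, cluster 11615 by a larger fold than under DMSO. Cluster 11615 was 37.1-fold higher in the degron-named dTag libraries than in the KPT libraries (log2 5.21, SE 0.206), and cluster 24962 was 27.9-fold higher (log2 4.80, SE 0.282). Cluster 2402 was 141-fold lower (log2 -7.14, SE 0.233) and cluster 31198 26.9-fold lower (log2 -4.75, SE 0.270). The difference between the log2 fold changes of the 2 comparisons was -0.78 (SE 0.255) for 11615, 0.24 (SE 0.388) for 24962, 0.41 (SE 0.290) for 2402 and 0.19 (SE 0.358) for 31198. None of these differences passed the test (adjusted p = 0.123, 0.807, 0.505 and 0.843, edgeR), which does not show that the effects were equal.

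The test of that difference called 538 of 13590 clusters (3.96%). It called 154 (7.52%) of the clusters called under 2-fold, 93 (9.73%) from 2-fold to 4-fold, 47 (10%) from 4-fold to 16-fold and 12 (4.24%) past 16-fold. Of the 42 gains 6 were called, and of the 241 losses also 6. Under the file names the lines received different compounds in the other 4 libraries, so a line effect that changes with treatment cannot be told apart from the compound effects. Under the titles all 4 are degron2, and the test compares the effect of dTag-13 with that of Selinexor. The count was 262 and 187 without degron-named replicate 1 or 2, 338 and 307 without OCI-named replicate 1 or 2, and 300 with a replicate block.

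Cluster numbers follow each other in the tables, and fold changes were compared along that order. How the numbers relate to chromosome positions is not given in the sources used here, and no position is drawn from them. In windows of 50 tested clusters, the median log2 fold change lay between -0.26 and 0.20 in the central 90% of the 272 windows. A median of at least 0.3 either way was found in 19 windows, and 14 of these formed 4 unbroken runs of 3 or 5 windows. The runs were picked from these values after they were seen. Their medians, directions and shares of calls in the DMSO pairs are therefore a description. The other 4 libraries were not used to pick them.

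**Figure D4:**
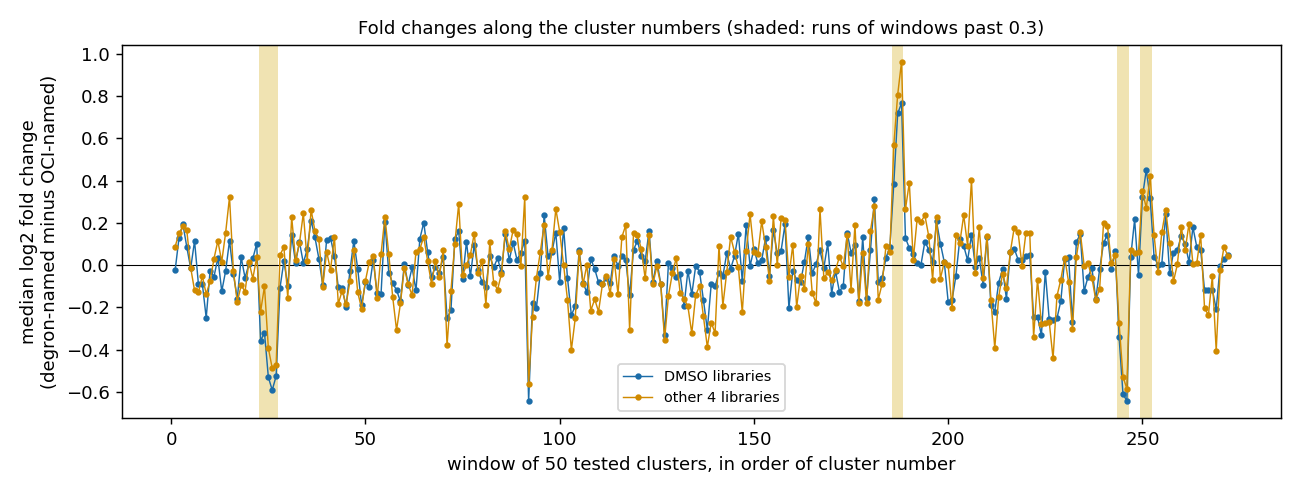
Median log2 fold change, degron-named minus OCI-named (y axis), in windows of 50 tested clusters ordered by cluster number (x axis), for the DMSO libraries and for the other 4 libraries. The 4 shaded runs stand at medians of -0.50, 0.72, -0.53 and 0.38 in the DMSO libraries and on the same side of 0 in the other libraries.

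The first run covered 250 tested clusters, from number 2332 to number 2895, and was lower in the degron-named pair. Its median log2 fold change was -0.50, a ratio of 0.707, and 196 of its 250 clusters lay below 0. The test called 117 of them lower and 22 higher, 55.6% in all. Of all tested clusters 27.6% were called, and a higher share in the run follows in part from how it was picked. Relative to the mean of the 8 human libraries, the median level was -0.206 and -0.200 on the log2 scale in the degron-named DMSO duplicates. It was 0.288 and 0.190 in the OCI-named DMSO duplicates. The dTag libraries stood at -0.186 and -0.163 and the KPT libraries at 0.098 and 0.172, so the degron-named and OCI-named libraries did not overlap.

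The second run, 150 tested clusters from number 20913 to 21243, was higher in the degron-named pair. Its median log2 fold change was 0.72, a ratio of 1.65, with 119 clusters above 0 and 84 called higher against 7 called lower. The degron-named DMSO duplicates stood at 0.319 and 0.310 and the OCI-named ones at -0.303 and -0.414. The dTag libraries had 0.417 and 0.439 and the KPT libraries -0.419 and -0.235, again without overlap. In the other 4 libraries the median log2 fold change was 0.75, with 96 clusters called higher and 16 lower.

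The third run held 150 tested clusters from number 28151 to 28472, and 84% of them were lower in the degron-named pair. The median log2 fold change was -0.53, a ratio of 0.694, with 72 clusters called lower and 7 higher. The degron-named DMSO duplicates were at -0.270 and -0.264 and the OCI-named ones at 0.312 and 0.244. The fourth run lay a few windows further on, from number 28826 to 29125, and went the other way. Its median was 0.38, a ratio of 1.30, with 49 clusters called higher and 12 lower. Its degron-named DMSO duplicates were at 0.228 and 0.250 and its OCI-named ones at -0.156 and -0.131.

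The runs kept their direction in the libraries that were not used to pick them. In the other 4 libraries the medians of the 4 runs were -0.34, 0.75, -0.50 and 0.32. Within a line by file name they were smaller: dTag against DMSO gave 0.01, 0.07, 0.04 and -0.08, and KPT against DMSO gave -0.03, -0.00018, 0.02 and -0.12. Outside the runs, windows also shifted within a line. The largest absolute window median was 0.22 for dTag against DMSO and 0.34 for KPT against DMSO, the latter past the limit of 0.3. Across all 272 windows the medians of the DMSO comparison and of the other 4 libraries had a Pearson's r of 0.838 and a Spearman's rho of 0.773. These are windows of the same libraries, not independent samples, so no p is given.

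**Figure D5:**
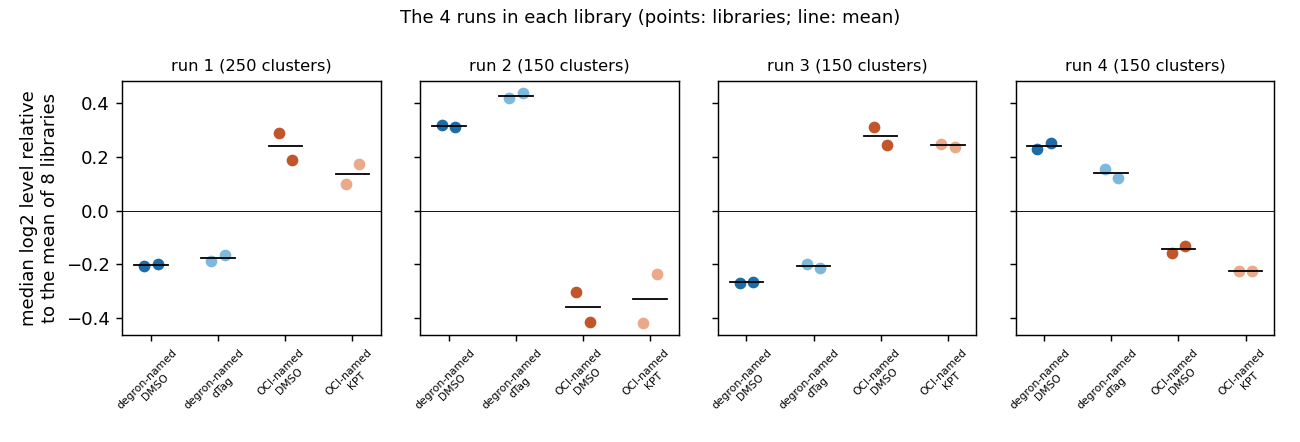
Median log2 level of the clusters in each of the 4 runs, relative to the mean of the 8 human libraries (y axis), by file name (x axis), with 1 point per library and a line at the mean of 2. In each run the 4 degron-named libraries lie on one side of 0 and the 4 OCI-named libraries on the other.

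The runs held a small part of the difference between the pairs. They covered 700 tested clusters, of which 370 (52.9%) were called, while 3386 of the 12890 clusters outside them (26.3%) were called. The higher share inside follows in part from how the runs were picked. Of the 283 clusters past 16-fold, 21 lay in the runs and 262 outside. Some large losses sat beside each other: 31 of the 241 losses had a loss past 16-fold as the next tested cluster, with up to 4 in a row, and 0 of the 42 gains had such a neighbour among gains. Such losses made up 1.77% of tested clusters and such gains 0.309%, so the 31 and the 0 are not directly comparable. The number expected by chance was not worked out.

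Transcript length moved with the direction of the differences. In the quartile of tested clusters with the shortest transcripts the median log2 fold change was -0.11, with 261 clusters called higher and 540 lower in the degron-named pair. In the quartile with the longest transcripts it was 0.12, with 633 called higher and 469 lower. The same medians in the other 4 libraries were -0.11 and 0.11. There too the degron-named libraries had the shorter inferred fragments (207.2 and 214.9 nt against 266.4 and 234.9 nt). The part of fragment length in the calls was not tested. The medians of the 4 runs were -0.51, 0.69, -0.52 and 0.37 with the trend on transcript length removed.

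The largest differences were found among clusters of low level, taken as the mean log2 CPM over both pairs. A cluster close to silence in either pair is placed low by this measure itself. In the lowest quartile of tested clusters by level, with a median of 1.47 CPM, 31.4% were called and 270 of the 283 clusters past 16-fold were found. In the highest quartile, with a median of 129 CPM, 24.2% were called and a single cluster passed 16-fold. These are bulk measurements, so fewer cells with a transcript and less of it per cell cannot be told apart.

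The make-up of clusters with several transcripts was compared through the mean transcript length that RSEM reports, which shifts when the estimated shares of a cluster's transcripts shift. Of 7909 such clusters with at least 50 expected counts in each of the 8 libraries, limma called 0 (0%) between the pairs at an adjusted p under 0.05. The smallest adjusted p was 0.0978, and 461 clusters (5.83%) had an unadjusted p under 0.05. Without degron-named replicate 1 or 2 the count was 5 and 2, and without OCI-named replicate 1 it was 1. The median difference was 0.00024 on the log2 scale. The pairs did not overlap in 3006 of the 7909 clusters (38%), a pattern that 2 libraries against 2 often give by ordering alone. In 14 of these they differed at least 1.5-fold in mean length, 8 of them longer and 6 shorter in the degron-named pair, and 11 of the 14 differed in the same direction in the other 4 libraries. Of these 14 clusters 7 were also called in expression, against 27.6% of all clusters tested for it. The latter also include clusters with fewer counts or a single transcript, so the sets are unlike.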

How the data were processed

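RNA was taken from human OCI-AML3 lines and prepared with a rapid kit from Swiftbio, per the labels' protocols. Tools listed in the submitters' processing notes are RSEM, STAR 2.6.1 and DESeq2, and the builds listed there are mm9 and hg19, all without roles. Annotation release and strand use are not given in the sources here. For each library the authors deposited an RSEM table with expected counts (estimated, often fractional), TPM and mean transcript length per UCSC transcript cluster, per the file headers.

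Expected counts were rounded. One edgeR 4.0.16 fit in R 4.3.3 covered 8 libraries in 4 groups (filterByExpr, TMM, robust quasi-likelihood), tested 13590 of 31848 clusters and adjusted p by Benjamini-Hochberg. An SE is the absolute log2 fold change over the square root of F. The common biological coefficient of variation was 0.137. Lengths and TPM were tested with limma 3.58.1, and DESeq2 1.42.0 was an alternative. Scripts were tested on simulated data. Duplicates differed by more than counting noise, with a chi-square per degree of freedom of 11.3 and 22.4, so no pair was treated as copies of 1 library. Floors and counts cover counting error only.

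The file names that define the pairs come from the file list, and the grouping of libraries is the one the sample titles give. The members, tests and lists were chosen with earlier results of these data known. Named clusters were the 2 most abundant in each direction past 16-fold with non-overlapping libraries and expected counts within 0.01 of whole numbers. Symbols came from RefSeq synonyms (GRCh38.p14), with no coordinates used. No sequence is printed, since the clusters could not be matched to one. Alternatives covered scaling, filter, tool, libraries in the fit, replicate block, shared reads and left-out libraries. Mouse libraries were not used.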

Additional observations from a re-analysis of the deposited data

Results flagged for a closer look

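The difference between the pairs under DMSO and the difference between the same file-named lines in the other 4 libraries were not alike for 538 clusters by the test of the difference itself (edgeR, adjusted p under 0.05), and this is what singled the result out. Of the 3756 clusters called between the DMSO pairs, 306 were among the 538. In 158 of those 306 the absolute log2 fold change was smaller in the other 4 libraries than under DMSO.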

How the results depend on the processing

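Each of the 4 named clusters kept its direction and its call under all 13 alternatives run for it, with log2 fold changes of 4.35 to 4.53 (11615), 4.47 to 5.45 (24962), -6.87 to -6.33 (2402) and -4.85 to -4.28 (31198). The 4 runs of neighbouring clusters kept their direction under all 12 alternatives, chosen after seeing the data, with medians of -0.53 to -0.41, 0.66 to 0.81, -0.57 to -0.43 and 0.34 to 0.48. There were 57 of 544 windows past 0.3 with windows of 25 and 7 of 136 with windows of 100, against 19 of 272. Of the 700 clusters in the runs, 575 lay in windows past 0.3 with windows of 25, and 550 with windows of 100. With a mean of at least 5 CPM there were 825 calls past 2-fold and 53 past 16-fold (11 higher, 42 lower), as fewer clusters were tested. With limma on log2(TPM + 1) and a mean of at least 1 TPM (12197 clusters tested) there were 2460 calls, of which 917 were lower, with 963 past 2-fold and 19 past 16-fold (6 higher, 13 lower). Unit, scaling, filter and tool all differ there, and the cause was not tested. Clusters without a count numbered 137 and 28 (degron-named and OCI-named pair) with a minimum of 5 in the other pair, and 18 and 1 with a minimum of 50. For transcript make-up, 1 cluster was called with a minimum of 200 counts.

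Leaving out each of the 4 libraries in turn gave 2105 to 3420 calls, 919 to 1534 higher and 1186 to 1886 lower in the degron-named pair. Calls for the difference between conditions ranged from 187 to 338. Clusters without a count ranged from 57 to 84 in the degron-named pair and from 7 to 16 in the OCI-named pair, and calls of transcript make-up from 0 to 5. The cause of these changes was not tested beyond the smaller number of libraries.

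The replicate numbers of the labels were not shown to pair libraries: the differences between replicates 1 and 2 correlated at -0.064 between the 2 pairs. A replicate block gave 3150 calls against 3756, 3133 of them shared, 300 calls for the difference between conditions, and 0 for transcript make-up. With 2 libraries a pair, clusters under about 3 counts in a pair were at the limit of detection.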

Other observations

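Besides the 4 runs, 5 single windows of 50 tested clusters had a median log2 fold change of at least 0.3 either way between the DMSO pairs. The lowest of all windows, from cluster number 11003 to 11122, was at -0.64 and at -0.56 in the other 4 libraries. Within a line by file name its median was -0.10 for dTag against DMSO and -0.21 for KPT against DMSO. The other windows stood at -0.33, -0.31, 0.31 and -0.33, and at -0.35, -0.39, 0.28 and -0.28 in the other 4 libraries.

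The 3 clusters with a symbol were hardly transcribed. ACTA2-AS1 had 0 and 1.04 expected counts in the degron-named DMSO duplicates and 2.92 and 0 in the OCI-named ones. ZNF350-AS1 had a single count in OCI-named replicate 1 and none in the other 7 human libraries. HNF4A-AS1 had none in any of the 8. None of the 3 passed the count filter, so no difference was tested.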
